A study of Homo sapiens with 12 samples.

Results

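The SLC25 genes encode the mitochondrial carriers, and their transcripts were followed in MiaPaCa-2 cells, an established human pancreatic cancer line, after knockdown of one of them, SLC25A1, and of 2 genes that use its cargo in the cytosol. Members were all rows of the count table whose Ensembl identifier belonged to a symbol made of SLC25A and a number. There were 49 such rows of 70116 in all, for 48 different symbols, because SLC25A6 was listed under 2 identifiers. The groups were siControl (a control small interfering RNA), siSLC25A1, siACLY and siACO1, each with 3 libraries of poly(A) RNA, 12 in all. Every group was transfected with a small interfering RNA (siRNA), a short duplex that directs the breakdown of a matching transcript. The labels give neither the siRNA sequences and their number per target nor the time after transfection. An effect of losing a target therefore cannot be told apart from other effects of its siRNA. Nothing in the labels says that the replicates came from separate cultures. The p-values thus measure only the spread between these libraries, which may be technical.

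Mitochondrial carriers are small proteins of the inner mitochondrial membrane that swap or co-transport metabolites, nucleotides, cofactors, iron and phosphate between the cytosol and the matrix. SLC25A1 is the citrate carrier, which sends citrate out of the matrix in exchange for malate. Once in the cytosol, citrate is a substrate of the ATP citrate lyase ACLY, which makes acetyl-CoA from it, and of the cytosolic aconitase ACO1, which makes isocitrate and doubles as a regulator of transcripts with iron-responsive elements. Other carriers move dicarboxylates, oxoglutarate, or aspartate and glutamate, and share substrates with the citrate carrier or with the malate-aspartate shuttle. The question put to the family was whether the transcripts of other carriers were higher where SLC25A1 was lowered.

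Of the 49 rows, 39 had enough counts to be tested, among 16197 genes tested in all. A gene was called changed where edgeR's quasi-likelihood test gave a Benjamini-Hochberg adjusted p under 0.05. Against siControl, 7 of the 39 were called in siSLC25A1 (17.9%, beside 19.6% of all genes tested), 15 in siACLY (38.5%, beside 36.7%) and 19 in siACO1 (48.7%, beside 37.1%). SLC25A1 itself fell by 3.51 on the log2 scale in siSLC25A1, and of the 38 other carriers tested there 1 rose, SLC25A13, and 5 fell, SLC25A20, SLC25A22, SLC25A23, SLC25A35 and SLC25A39. SLC25A23 and SLC25A39 fell in all 3 knockdowns, 2 of the 39, while 6.87% of all genes were called in all 3. The 3 comparisons share the same control libraries, so they are set side by side below and the differences between knockdowns are taken from direct tests.

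The promoter windows of 4 carriers are shown. These are SLC25A1, the target, SLC25A13, the carrier that rose in siSLC25A1 and in siACLY, and SLC25A23 and SLC25A39, which fell in every knockdown. Each window runs from 250 bases before to 50 after the gene's start in RefSeq (GRCh38.p14), all on the minus strand and printed 5′ to 3′ as transcribed. The RefSeq start used for SLC25A23 lies inside the gene's longer GENCODE span. Capitals mark matches, on either strand, to the GC box GGGCGG, the CCAAT box CCAAT and the E-box CACGTG. The windows are chr22:19178687-19178986 for SLC25A1, chr7:96322049-96322348 for SLC25A13, chr19:6459743-6460042 for SLC25A23 and chr17:44324774-44325073 for SLC25A39.
SLC25A1 promoter: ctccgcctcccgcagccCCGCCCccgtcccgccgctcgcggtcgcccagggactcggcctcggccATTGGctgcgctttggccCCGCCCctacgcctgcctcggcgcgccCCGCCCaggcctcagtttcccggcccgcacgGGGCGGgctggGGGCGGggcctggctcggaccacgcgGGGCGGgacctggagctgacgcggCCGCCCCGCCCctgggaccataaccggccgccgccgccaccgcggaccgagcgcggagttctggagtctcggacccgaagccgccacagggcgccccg
SLC25A13 promoter: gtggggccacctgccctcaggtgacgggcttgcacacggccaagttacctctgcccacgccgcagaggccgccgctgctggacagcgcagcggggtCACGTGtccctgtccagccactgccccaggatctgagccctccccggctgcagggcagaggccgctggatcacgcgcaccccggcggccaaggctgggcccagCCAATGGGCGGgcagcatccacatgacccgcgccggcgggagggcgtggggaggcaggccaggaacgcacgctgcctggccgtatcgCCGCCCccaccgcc
SLC25A23 promoter: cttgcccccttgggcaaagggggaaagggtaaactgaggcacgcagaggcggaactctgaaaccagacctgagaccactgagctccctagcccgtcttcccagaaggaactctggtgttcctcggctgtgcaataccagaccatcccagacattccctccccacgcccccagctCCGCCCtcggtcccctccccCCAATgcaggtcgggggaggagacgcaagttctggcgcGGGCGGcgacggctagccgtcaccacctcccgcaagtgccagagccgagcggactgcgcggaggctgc
SLC25A39 promoter: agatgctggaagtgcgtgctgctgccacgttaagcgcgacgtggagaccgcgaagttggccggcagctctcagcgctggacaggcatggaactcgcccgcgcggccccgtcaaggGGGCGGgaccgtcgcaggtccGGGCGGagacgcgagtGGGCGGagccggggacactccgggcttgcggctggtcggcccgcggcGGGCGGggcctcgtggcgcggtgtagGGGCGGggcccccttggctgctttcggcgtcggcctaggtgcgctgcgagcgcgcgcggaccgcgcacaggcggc
The SLC25A1 window held 8 GC boxes, of which neighbouring matches can share bases, and 1 CCAAT box. The SLC25A13 window held 2 GC boxes, 1 CCAAT box that directly adjoins one of them, and 1 E-box. The SLC25A23 window held 2 GC boxes and 1 CCAAT box, and the SLC25A39 window 5 GC boxes and no CCAAT box. A window was found for 40 of the member symbols, and a GC box stood in 30 of them (75%), against 45% of 35116 windows of all genes. A CCAAT box stood in 21 (52.5%, against 34.6%) and an E-box in 9 (22.5%, against 7.26%). The ETS motif CCGGAAG stood in 11 (27.5%, against 10.3%), and the sterol regulatory element TCACNCCAC in 1, that of SLC25A40 (2.5%, against 1.13%). A symbol counted where any of its windows matched, whereas the background counted single windows of all genes, without a filter on expression. The shares are therefore not on like terms, and their difference was not tested. A match is a description of the letters and not a binding site.

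The levels of the carriers in control cells spanned a wide range per length of exon. Here a level is CPM per kilobase of exon in GENCODE release 29. CPM is the counts of a gene relative to the scaled size of its library (trimmed mean of M values). The length joins all annotated exons of a gene and can exceed that of the transcript in these cells, so the order depends on it. SLC25A5, the adenine nucleotide translocase that swaps ADP for ATP in many proliferating cells, stood first at 456 ± 8.71 CPM per kilobase in siControl (SD, n = 3). SLC25A39, a carrier needed for glutathione import into mitochondria, followed at 92.1 ± 2.03. SLC25A1 came next at 64.0 ± 0.329, and SLC25A3, the phosphate carrier, was at 58.3 ± 0.395. Their order rests on the joined exon length, 2.10 kilobases for SLC25A1 and 8.90 for SLC25A3. By CPM alone SLC25A3, at 518 in siControl, was above SLC25A1, at 134. The ornithine carrier SLC25A15 was at 36.4 ± 1.30. SLC25A13, an aspartate/glutamate carrier known as citrin, at 21.5 ± 0.711, and SLC25A11, the oxoglutarate/malate carrier, at 21.2 ± 0.434, did not differ beyond their spread. From SLC25A5 down to SLC25A30 at 3.08 the order held 30 carriers, and the remaining 9 that were tested lay between 0.989 for SLC25A34 and 0.118 for SLC25A26, which transports S-adenosylmethionine.

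**Figure D1:**
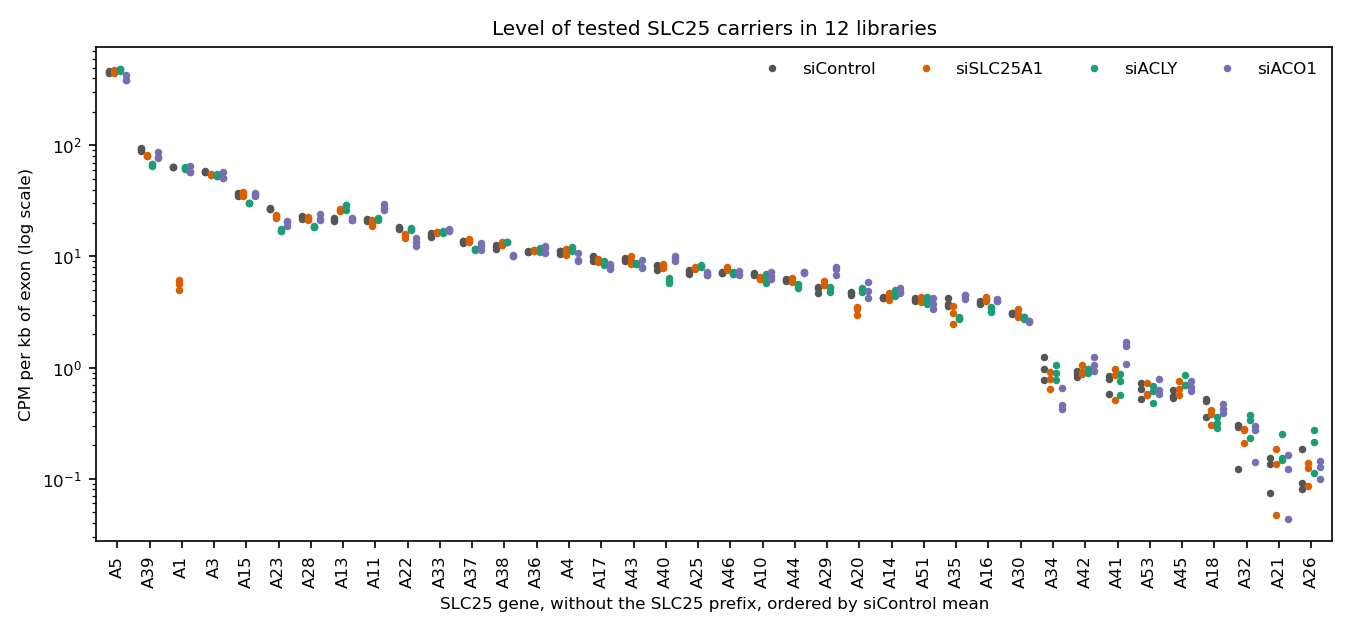
Level of the tested SLC25 members, 1 of the 39 left out, as CPM per kilobase of exon on a log axis, with 1 point for each of the 12 libraries, coloured by group, and genes ordered by the siControl mean. SLC25A5 at 456 stands above SLC25A39 at 92.1 and SLC25A1 at 64.0 in siControl, the siSLC25A1 points of SLC25A1 lie far below its other points, and the lowest member is SLC25A26 at 0.118.

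The 10 rows that were not tested were SLC25A2, SLC25A12, SLC25A24, SLC25A27, SLC25A31, SLC25A47, SLC25A48, SLC25A52 and both rows of SLC25A6. SLC25A31 and both rows of SLC25A6 were listed at 0 in all 12 libraries. SLC25A12, the other aspartate/glutamate carrier, had 34 counts over the 12 libraries, between 0 and 6 in each. SLC25A24, a calcium-dependent ATP-Mg/phosphate carrier, had 16, between 0 and 4 in each. The other 5 symbols had between 1 and 23 counts in all. A value of 0 in this table is not read as a silent gene, because genes that most cells use were also at or near 0. Chosen after their values were seen, DYNC1I2 had 0 counts over the 12 libraries, HAT1 30, MTCH2 13 and TIMM22 2. SLC25A6 and SLC25A12 are therefore given only as listed, and no statement is made about their response. A count of 3, taken as the floor, was worth 0.0674 to 0.124 CPM.

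Library totals ran from 24159424 to 43792811 counts, with 28641881 to 36466251 in siControl and 24336768 to 29206149 in siSLC25A1. In siACLY they were 25438086 to 43792811 and in siACO1 24159424 to 31315425. ACLY fell by 3.79 on the log2 scale in siACLY and ACO1 fell by 4.74 in siACO1 (adjusted p 4.15e-32 and 2.43e-25, edgeR). siACO1 replicate 3 stood apart from its partners, with a chi-square per degree of freedom of 10.7 and 11.3 over genes, against at most 5.37 in the other pairs of replicates, so results that rest on it are given with and without it. Of the markers of the cell line, the epithelial keratins KRT8 and KRT18 and the mesenchymal VIM were high in every library, while EPCAM, PTPRC, COL1A1, DCN and PECAM1 were at or near 0. KRT8 and KRT18 fell in siSLC25A1 (by 0.18 and 0.20) and in siACO1 (by 0.83 and 0.78), KRT19 rose in siSLC25A1 and siACLY (0.45 and 0.67) and fell by 0.76 in siACO1, and VIM rose in siACLY (0.36). These moved alongside the carriers, and their part in the carriers' changes was not tested. In bulk RNA, fewer cells of a state and less RNA per cell cannot be told apart.

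The target itself was reduced in each library of its own siRNA and in none of the others to a like extent. SLC25A1 (chr22:19175575-19178830, minus strand, GENCODE 29 on GRCh38) was at 133, 135 and 134 CPM in the siControl libraries and at 12.9, 10.5 and 11.7 in siSLC25A1. It was at 133, 129 and 132 in siACLY and at 120, 121 and 135 in siACO1. The siSLC25A1 libraries lay far below all 9 others, and the siACO1 libraries overlapped the controls. The log2 fold change in siSLC25A1 was -3.51 (SE 0.06, adjusted p 1.52e-26), which left 8.75% of the mean control level. Neither siACLY (-0.03, adjusted p 0.684) nor siACO1 (-0.09, 0.141) passed the test for SLC25A1, although without siACO1 replicate 3 the siACO1 value was -0.15 and was called (0.00415).

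With SLC25A1 low, the other carriers did not move to higher levels as a group. Of the 38 others tested 6 were called (15.8%), against 19.6% of all 16197 genes, and 1 was higher and 5 were lower, against 10.3% and 9.27% of all genes. Their median log2 fold change was 0.01, beside -0.00 for all genes, and the median size of the change was 0.09, beside 0.15. The summed level of the family without SLC25A1 was 2803 ± 16.8 CPM in siControl and 2734 ± 19.4 in siSLC25A1 (SD, n = 3). The siSLC25A1 libraries, at 2717 to 2755, lay below the siControl libraries, at 2789 to 2822, with no overlap. That sum was not tested, and SLC25A5 and SLC25A3 are its largest parts. Mean CPM in siControl and siSLC25A1 was 683 and 688 for SLC25A5, 518 and 486 for SLC25A3, and 325 and 286 for SLC25A39.

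The carriers closest to SLC25A1 in substrate, the di- and tricarboxylate carriers, held no member that rose in siSLC25A1. Of the 5 tested besides SLC25A1, 1 was called, as lower (20%, beside 19.6% of all genes). SLC25A10, the dicarboxylate carrier that swaps malate or succinate for phosphate, was at 18.8, 17.7 and 18.3 CPM in siControl and at 17.2, 16.5 and 16.3 in siSLC25A1. All siSLC25A1 libraries were below all controls, but the change of -0.13 (SE 0.08, 95% confidence interval -0.29 to 0.04, adjusted p 0.287) did not pass the test. SLC25A11, the oxoglutarate/malate carrier of the malate-aspartate shuttle, was at 56.6, 55.6 and 57.9 in siControl and at 52.5, 50.5 and 56.2 in siSLC25A1. Its groups overlapped in 1 library, and its change was -0.10 (interval -0.20 to 0.01, 0.225). For SLC25A11 the interval thus reached at most 0.01 on the side of a rise, and for SLC25A10 0.04. For SLC25A10, however, 46.6% of exon bases overlap another gene on either strand. Its reads may belong to that neighbour, so its interval may not bound its own transcript.

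SLC25A35, an orphan carrier related to the oxaloacetate carriers of yeast, fell. It was at 14.5, 16.4 and 14.1 CPM in siControl and at 12.1, 13.8 and 9.62 in siSLC25A1. Every siSLC25A1 library was lower than every control, with a change of -0.34 (SE 0.10, adjusted p 0.0129). The call was lost without siControl replicate 2 (-0.27, 0.0978) or siSLC25A1 replicate 3 (-0.22, 0.134), and 33.2% of its exon bases overlap other genes on either strand, so reads may belong to a neighbour. SLC25A34, its near relative, was at 3.94, 2.47 and 3.07 in siControl and 2.06, 2.54 and 2.9 in siSLC25A1, overlapping, with a change of -0.35 (interval -0.76 to 0.06). SLC25A21, the oxoadipate carrier, had 178 counts over the 12 libraries, and its interval of -0.98 to 0.97 leaves changes of either sign undetectable at this depth.

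SLC25A13 was the carrier that rose. Citrin brings glutamate into the matrix in exchange for aspartate and is part of the malate-aspartate shuttle, in which SLC25A11 is the partner carrier. SLC25A13 (chr7:96120220-96322147, minus strand) was at 82.3, 79.5 and 77.0 CPM in siControl and at 99.2, 95.1 and 97.2 in siSLC25A1. Each siSLC25A1 library was higher than each control, with a log2 fold change of 0.29 (SE 0.05, interval 0.19 to 0.38, adjusted p 3.63e-05). It was also at 109, 107 and 97.5 in siACLY, again above all controls (0.39, SE 0.05, 8.93e-08), and at 79.3, 81.9 and 79.0 in siACO1, within their range (0.01, 0.918). Tested directly, siSLC25A1 exceeded siACO1 by 0.28 (1.67e-05), and siSLC25A1 minus siACLY was -0.10 (interval -0.20 to -0.01, 0.0822), which did not pass. The siSLC25A1 calls of SLC25A13, SLC25A20, SLC25A22, SLC25A23 and SLC25A39 held in all 20 alternative settings of the analysis that set no fold threshold.

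**Figure D2:**
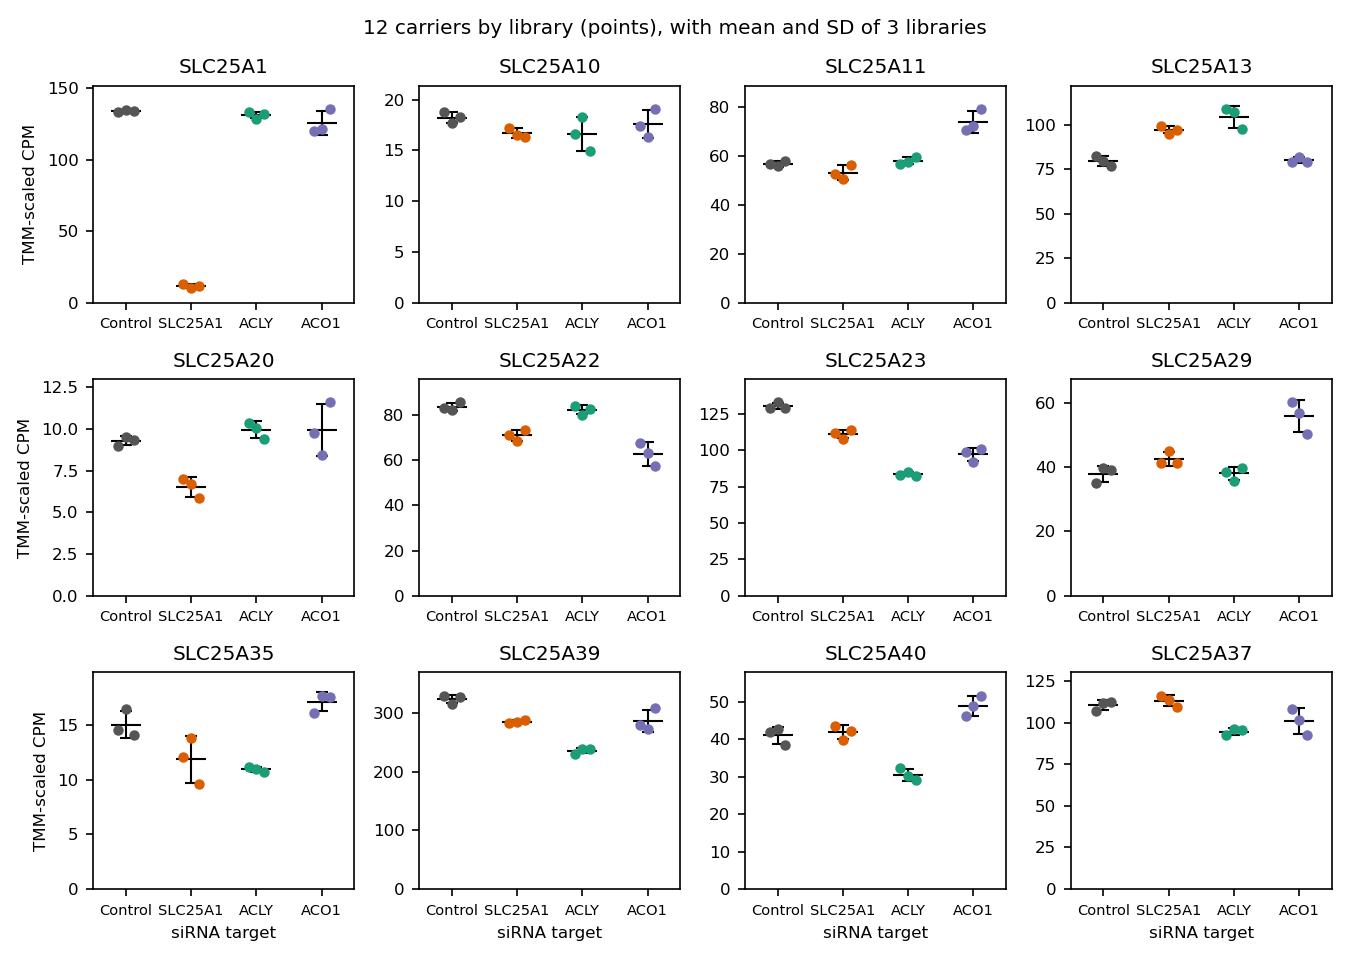
CPM in each of the 12 libraries (points) for 12 carriers, 1 panel each, with the mean and SD of 3 libraries per siRNA target as bars and each axis starting at 0. SLC25A13 is higher in siSLC25A1 and siACLY than in siControl and siACO1, while SLC25A23 and SLC25A39 lie below siControl in every knockdown library.

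Carriers of amino acids, acylcarnitine and glutathione, 12 of the 38 others tested, made up 3 of the 5 that fell beside SLC25A1. Of these 12, 4 were called (33.3%, beside 19.6% of all genes), SLC25A13 higher and 3 lower (beside 10.3% and 9.27% of all genes). SLC25A20, which brings acylcarnitines into the matrix for fatty acid oxidation in exchange for carnitine, showed the largest fall of the 38 carriers. It was at 8.99, 9.55 and 9.36 CPM in siControl and at 7.01, 6.68 and 5.84 in siSLC25A1. The groups did not overlap, and the change was -0.51 (SE 0.11, interval -0.74 to -0.28, adjusted p 0.00141). SLC25A20 did not pass in siACLY (0.10, 0.477) or siACO1 (0.10, 0.518), and in direct tests siSLC25A1 lay 0.61 below siACLY and 0.61 below siACO1 (8.63e-05 and 7.42e-05). The fall of this carrier was therefore different from both other knockdowns. SLC25A22, a glutamate carrier, was at 82.9, 82.2 and 85.6 in siControl and at 71.0, 68.4 and 73.5 in siSLC25A1, with no overlap (-0.24, SE 0.05, 0.00126).

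SLC25A39, the glutathione carrier, was at 330, 317 and 327 CPM in siControl and at 283, 285 and 289 in siSLC25A1 (-0.18, SE 0.04, adjusted p 0.00207), each below all controls. SLC25A40, its paralog, was at 41.9, 42.9 and 38.4 in siControl and at 43.7, 40.0 and 42.2 in siSLC25A1 (0.03, interval -0.09 to 0.15, 0.790), with overlap. So in siSLC25A1 the test passed for 1 of the 2 glutathione carriers. SLC25A23, a calcium-dependent carrier that swaps ATP-Mg for phosphate, was at 129, 133 and 129 in siControl and at 112, 108 and 114 in siSLC25A1 (-0.23, SE 0.04, 0.000236), again with no overlap.

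In the remaining roles no carrier was called in siSLC25A1. None of the 8 tested carriers of other nucleotides, cofactors and vitamins passed, nor did the iron carriers SLC25A28 (-0.03, 0.767) and SLC25A37 (0.04, 0.666), which bring iron to the matrix for heme and iron-sulfur clusters. The uncoupling-related SLC25A14 (0.04) and SLC25A30 (0.01) and the 3 orphan or outer-membrane members also gave no call. Among the adenine nucleotide and phosphate carriers, SLC25A23 was the 1 of 6 called (16.7%, beside 19.6% of all genes). The 4 members with an unadjusted p under 0.05 that did not pass were SLC25A29, a carrier of basic amino acids (0.17, adjusted p 0.0746), SLC25A46, an outer-membrane member linked to mitochondrial fission and lipid transfer (0.12, 0.0908), SLC25A25, an ATP-Mg/phosphate carrier (0.13, 0.103), and SLC25A3 (-0.09, 0.123). SLC25A3 was at 481, 485 and 491 CPM in siSLC25A1, against 516 to 522 in siControl, with no overlap. Without siACO1 replicate 3, whose spread enters the shared fit, 10 members were called, with SLC25A29 and SLC25A46 added as higher and SLC25A3 as lower, while the share of all genes called went from 19.6% to 24.9%.

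**Figure D3:**
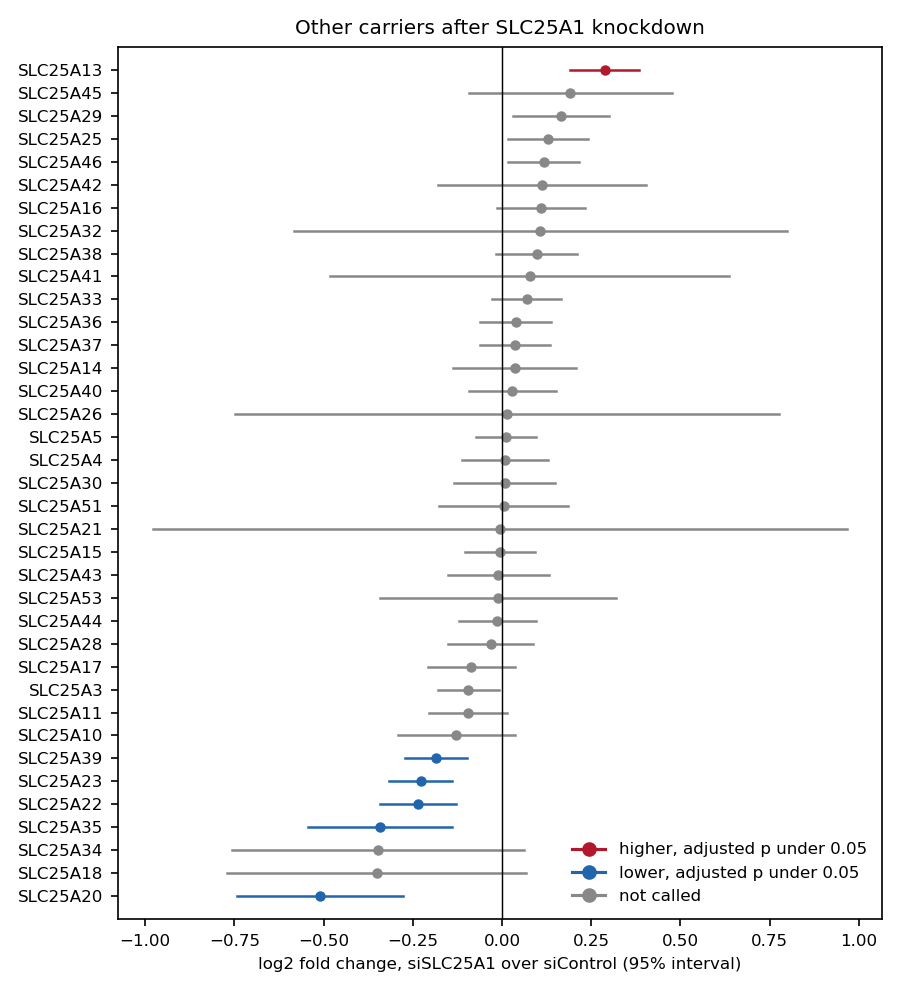
Log2 fold change of siSLC25A1 over siControl for the other tested carriers, 1 of the 38 left out (points), with the unadjusted 95% confidence interval (lines), in red for called higher, blue for called lower and grey for not called. SLC25A13 at 0.29 is the 1 red point, 5 points are blue with SLC25A20 lowest at -0.51, and the widest interval is that of SLC25A21.

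In siACLY, whose target lies downstream of the citrate carrier, 15 of 39 carriers were called (38.5%), against 36.7% of all genes. Of these 4 were higher and 11 lower, against 18.4% and 18.3% of all genes. With libraries scaled by their totals alone the split was 6 higher and 7 lower of 13. Under that scaling 36.3% of all genes were called, and 61% of those were higher. In the main fit the median size of the change was 0.14, beside 0.20 for all genes. The falls with the smallest adjusted p were those of SLC25A23, SLC25A39 and SLC25A40. SLC25A23 was at 83.1, 85.1 and 82.5 CPM in siACLY, against 129 to 133 in siControl, a change of -0.64 (SE 0.04, adjusted p 1.77e-12). SLC25A39 was at 231, 238 and 240, against 317 to 330 (-0.46, SE 0.04, 1.15e-09). SLC25A40 was at 32.3, 30.2 and 29.1, against 38.4 to 42.9 (-0.43, SE 0.06, 1.92e-06). For all 3 the siACLY libraries lay below every control library, and both glutathione carriers were thus lower in siACLY.

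Both iron carriers, known as mitoferrins, fell in siACLY. SLC25A28 was at 32.1, 32.8 and 32.0 CPM, against 40.1, 40.7 and 37.8 in siControl (-0.29, SE 0.06, adjusted p 0.000189). SLC25A37 was at 92.3, 95.9 and 95.7, against 107, 112 and 113 (-0.22, SE 0.05, 0.000504). Neither carrier's libraries overlapped the controls, and in direct tests both were lower in siACLY than in siSLC25A1, by 0.26 each (0.0009 for SLC25A28 and 0.000106 for SLC25A37).

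Of the 12 amino acid carriers tested, 8 were called in siACLY (66.7%, beside 36.7% of all genes), 3 higher and 5 lower (beside 18.4% and 18.3% of all genes). Besides SLC25A13, SLC25A38, a glycine carrier used in heme synthesis (0.15, adjusted p 0.0328), and SLC25A45 (0.38, 0.0249) were the higher members. SLC25A15, the ornithine carrier of the urea cycle, was at 55.5, 56.1 and 55.0 CPM, against 64.2, 67.5 and 68.9 in siControl, lower without overlap (-0.27, 6.18e-05). SLC25A44, a carrier of branched-chain amino acids, fell by 0.17 (0.0110). SLC25A18, a second glutamate carrier, was at 1.51, 1.36 and 1.70, against 2.46, 2.36 and 1.72, and the highest siACLY library came near the lowest control (-0.53, SE 0.20, 0.0403). SLC25A35 fell as well (10.7 to 11.2, against 14.1 to 16.4, a change of -0.46, 0.000434), while SLC25A10 (-0.14, 0.183), SLC25A11 (0.03, 0.719) and SLC25A34 (-0.15, 0.586) did not pass. The remaining calls were SLC25A25 (0.18, 0.00932), higher, and SLC25A16, a carrier linked to coenzyme A (-0.19, 0.0163), and SLC25A3 (-0.12, 0.0267), lower. SLC25A26 had a change of 0.80 (SE 0.34) at 295 counts over the 12 libraries and did not pass (0.0660).

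Several siACLY calls were close to the threshold. Without siControl replicate 2 the count was 9, with 1 higher and 8 lower, and the share of all genes called was 30.1%. The calls of SLC25A18 and SLC25A38 held in 13 of 20 alternative settings and that of SLC25A3 in 14, and those of SLC25A45, SLC25A16, SLC25A25 and SLC25A44 in 16 to 18, whereas those of SLC25A13, SLC25A15, SLC25A23, SLC25A28, SLC25A35, SLC25A37, SLC25A39 and SLC25A40 held in all 20.

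In siACO1 19 of the 39 carriers were called (48.7%), against 37.1% of all genes. Of these 7 were higher and 12 lower, against 17.8% and 19.3% of all genes. The median size of the change was 0.15, beside 0.21. Here the di- and tricarboxylate carriers held 1 that rose and 1 that fell, 2 of 6 tested (33.3%, beside 37.1% of all genes). SLC25A11 was at 70.5, 72.2 and 78.9 CPM in siACO1, against 56.6, 55.6 and 57.9 in siControl, above all controls (0.38, SE 0.05, adjusted p 7.24e-07). SLC25A34 was at 2.09, 1.46 and 1.35, against 3.94, 2.47 and 3.07, below all controls (-0.97, SE 0.21, 0.000491), on 917 counts over the 12 libraries. SLC25A10 (-0.05, 0.653) and SLC25A35 (0.19, 0.114) did not pass. For SLC25A11 the direct test put siSLC25A1 0.48 below siACO1 (1.42e-08) and siACLY 0.36 below it (1.79e-06).

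Amino acid carriers changed in both directions in siACO1. SLC25A29, which transports arginine and lysine, was at 60.1, 57.0 and 50.4 CPM, against 35.1, 39.6 and 39.1 in siControl, the largest rise among the amino acid carriers (0.56, SE 0.06, adjusted p 5.32e-08). SLC25A22 was at 67.7, 63.3 and 57.4, against 82.2 to 85.6, below all controls (-0.41, SE 0.05, 2.12e-07). SLC25A40 was at 46.3, 48.9 and 51.7, against 38.4 to 42.9 (0.25, SE 0.06, 0.000987), so this glutathione carrier was above the controls here. Its paralog SLC25A39 was at 280, 272 and 309, against 317 to 330, below all controls (-0.18, SE 0.04, 0.00138). SLC25A38 was at 27.1, 27.4 and 28.0, against 31.9 to 34.0 (-0.26, 0.000525), and SLC25A44 at 52.7, 51.6 and 53.2, against 43.8 to 45.4 (0.23, 0.000839). SLC25A38, SLC25A40 and SLC25A44 were thus called in opposite directions in siACLY and siACO1, and the direct tests of siACLY minus siACO1 gave 0.41 (7.61e-07), -0.68 (2.35e-10) and -0.40 (3.5e-07).

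Of the 6 tested carriers of adenine nucleotides and phosphate, 5 were called in siACO1 (83.3%, beside 37.1% of all genes). SLC25A23 was at 98.8, 92.1 and 101 CPM (-0.42, SE 0.04, adjusted p 5.58e-09). SLC25A5 was at 586, 583 and 645, against 671 to 697 (-0.18, 0.000982), although 31.8% of its 31-base stretches also occur in transcripts of other genes. SLC25A3 was at 449, 451 and 508, against 516 to 522 (-0.14, 0.00810), and SLC25A4, a further adenine nucleotide translocase, at 44.2, 44.8 and 52.0, against 51.4 to 54.0 (-0.17, 0.0207). For SLC25A3, SLC25A4 and SLC25A5 replicate 3 was the library nearest to the controls, and for SLC25A4 it overlapped them. The call of SLC25A4 held in 15 of 20 alternative settings and was lost with library totals and without siControl replicate 2 or 3 or siACO1 replicate 1 or 2 (adjusted p up to 0.116). That of SLC25A3 held in 18 and was lost without siACO1 replicate 1 or 2. SLC25A41, an ATP-Mg/phosphate carrier with few counts, rose (1.77, 2.57 and 2.79, against 0.943 to 1.40, a change of 0.99, SE 0.25, 0.00204).

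The other siACO1 calls were smaller. SLC25A17, a peroxisomal member (-0.25, adjusted p 0.00118), and SLC25A30 (-0.24, 0.00648) also fell, and SLC25A33, a pyrimidine nucleotide carrier (0.14, 0.0168), and SLC25A14 (0.21, 0.0399) rose. Of the iron carriers SLC25A37 was called (-0.13, 0.0323, libraries overlapping) and SLC25A28 was not (-0.01, 0.922). The call of SLC25A33 held in 17 of 20 settings, that of SLC25A37 in 15 and that of SLC25A14 in 13, each lost without siControl replicate 2 or 3. Without siACO1 replicate 3, 20 members were called, beside 37.3% of all genes, 17 of them also called with it, and the calls of SLC25A14 and SLC25A37 were lost.

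**Figure D4:**
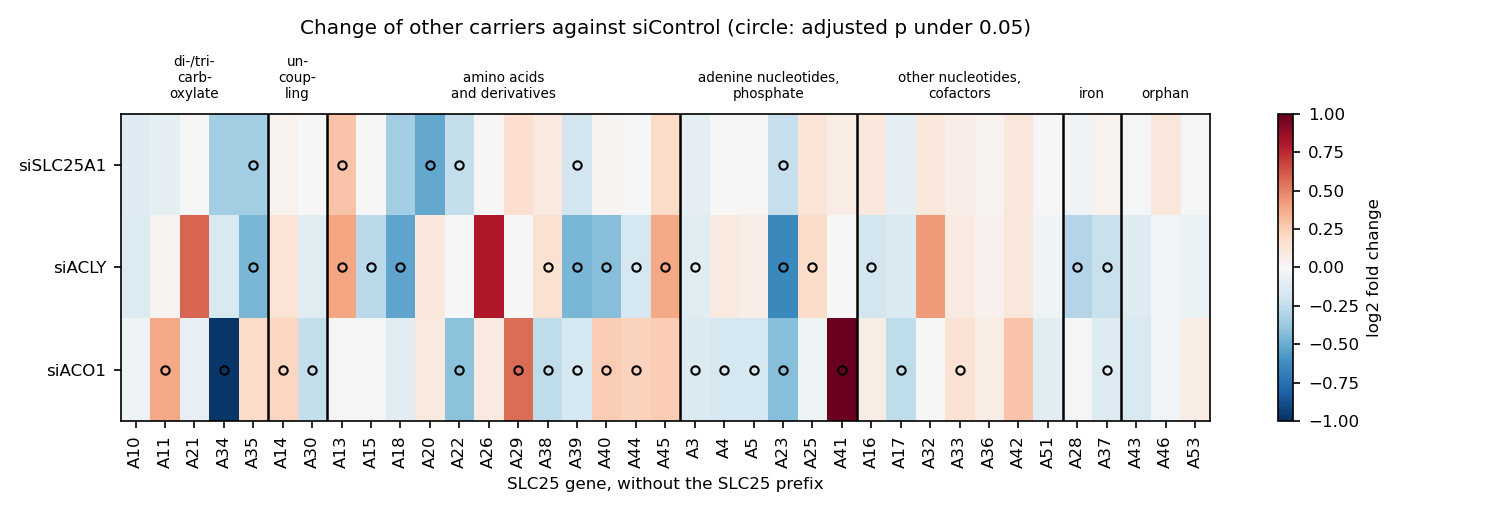
Log2 fold change against siControl (colour, blue lower and red higher, scale from -1 to 1) of the tested carriers other than SLC25A1, 1 of the 38 left out, in columns by role, for the 3 knockdowns in rows, with a circle where the adjusted p is under 0.05. SLC25A23 and SLC25A39 are blue with a circle in all 3 rows, and SLC25A38, SLC25A40 and SLC25A44 change colour between siACLY and siACO1.

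Across the 3 knockdowns 29 of the 39 carriers were called in at least 1, against 59% of all genes, and 10 in none, against 41%. SLC25A23 and SLC25A39 were the 2 called in all 3, against 6.87% of all genes. The fall of SLC25A23 differed between all 3 knockdowns in direct tests. siSLC25A1 lay 0.41 above siACLY (adjusted p 1.75e-08) and 0.20 above siACO1 (0.000587), and siACLY minus siACO1 was -0.22 (0.000168). For SLC25A39 siSLC25A1 lay 0.27 above siACLY (9.6e-06), while siSLC25A1 minus siACO1 was -0.01 (interval -0.10 to 0.08, 0.907). The 10 without a call in the fit of all 12 libraries were SLC25A10, SLC25A21, SLC25A26, SLC25A32, SLC25A36, SLC25A42, SLC25A43, SLC25A46, SLC25A51 and SLC25A53. Some of them depend on the libraries used. Without siACO1 replicate 3, SLC25A36 was called higher (0.14, adjusted p 0.00809) and SLC25A43 lower (-0.23, 0.00750) in siACO1, and SLC25A46 higher in siSLC25A1.

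Direct comparisons between knockdowns do not use the control libraries in the contrast. Between siSLC25A1 and siACLY 12 of 39 members were called, against 33.8% of all genes, with 9 higher and 3 lower in siSLC25A1 (17.5% and 16.3% of all genes). Scaling by library totals alone gave 7 higher and 6 lower of 13, beside 33.7% of all genes called. Of those called genes 41% were higher. Where siSLC25A1 was set against siACO1 21 were called, against 42.1%, with 13 higher and 8 lower (21.8% and 20.3% of all genes). With library totals 7 were higher and 10 lower of 17, beside 42.2% of all genes called, of which 42.2% were higher. The balance of directions thus depends on the scaling, among the carriers and among all genes called. Between siACLY and siACO1 18 were called, against 42.1%, with 7 higher and 11 lower in siACLY (21.4% and 20.7% of all genes). No test compared these counts with each other.

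Genes around the carriers were followed in short lists. AGK, a lipid kinase that is also a subunit of the TIM22 complex, which inserts carriers into the inner membrane, was the 1 of 6 tested genes of the carrier import route called in siSLC25A1 (16.7%, beside 19.6% of all genes). It was at 26.7, 26.8 and 28.2 CPM in siControl and at 19, 16.6 and 17.2 in siSLC25A1, lower without overlap (-0.63, SE 0.07, adjusted p 5.81e-08). In siACLY (0.03, 0.792) and siACO1 (-0.16, 0.0574) AGK did not pass, and siSLC25A1 lay below both in direct tests (-0.65, 1.41e-08, and -0.47, 2.56e-06). In siACLY the receptor TOMM70 (-0.33) fell and TIMM10B (0.19) rose, 2 of 6 tested (33.3%, beside 36.7% of all genes). No gene of this route was called in siACO1, where 37.1% of all genes were. TIMM22 itself was near 0 and was not tested.

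Of 7 other metabolite transporters of the inner membrane, SFXN5, a sideroflexin reported to carry citrate, was the 1 called in siSLC25A1 (14.3%, beside 19.6% of all genes). It was at 36.1, 33.3 and 34.6 CPM in siControl, at 43.9, 44.9 and 43.4 in siSLC25A1 and at 42.2, 42.8 and 43.2 in siACLY. Both knockdowns were above all controls, with 0.35 (SE 0.05, adjusted p 1.76e-05) and 0.30 (4.1e-05), and siACO1 did not pass (-0.12, 0.0876). In a direct test siSLC25A1 exceeded siACO1 by 0.46 (4.4e-08). The pyruvate carrier subunit MPC2 rose in siACLY (0.22) and siACO1 (0.35), its partner MPC1 fell in siACO1 (-0.24), and SFXN4 fell in both (-0.18 and -0.15). Of the exon bases of MPC2, 22.5% overlap another gene on either strand, so its reads may belong to that neighbour. The siACO1 call of SFXN4 held in 12 of 20 alternative settings and was lost with library totals, with DESeq2 and without siControl replicate 1 or 3 or siACO1 replicate 1 or 2, and its siACLY call held in 17. That of MPC1 held in 16 and was lost with library totals and without siControl replicate 1 or siACO1 replicate 1 or 2. SFXN1 (0.20) and SFXN3 (0.34) rose in siACO1.

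Of the carrier-fold proteins whose symbols the rule leaves out, UCP2, an uncoupling protein reported to move C4 metabolites, rose in all 3 knockdowns. It was at 11.9, 9.41 and 9.97 CPM in siControl and at 14.4, 11.7 and 13.5 in siSLC25A1 (0.34, SE 0.10, adjusted p 0.0153), where 1 library overlapped the controls and the call was lost without siControl replicate 2 or 3 or siSLC25A1 replicate 1 or 3. The values were 17.3, 15.2 and 16.8 in siACLY (0.65, 2.9e-06) and 16.7, 17.6 and 19.6 in siACO1 (0.79, 1.24e-07), above all controls. MTCH1, an outer-membrane insertase of the same fold, fell in siSLC25A1 (-0.17, 0.00329) and siACO1 (-0.15, 0.00490). The plasma membrane citrate and dicarboxylate transporters SLC13A2, SLC13A3 and SLC13A5 were at or near 0 and were not tested.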

How the data were processed

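The authors deposited 1 table of raw read counts per gene for 12 libraries, whole numbers that were not normalized, per the file headers and the values. Per the submitters' processing notes the tools included CASAVA, FastQC, Trim Galore, STAR 2.7.0e and DESeq2, and the builds named were GRCh38 and GRCm39. The counter, the annotation and the use of strand are not given in the sources used here, so overlapping genes cannot be separated. Symbols matched 62700 of 70116 identifiers (89.4%).

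Counts were filtered with filterByExpr at its defaults and scaled by TMM. The tool was edgeR 4.0.16 under R 4.3.3, with robust quasi-likelihood estimates for the 4 groups and no block (8 residual degrees of freedom, common biological coefficient of variation 4.89%). Tests were two-sided F tests with Benjamini-Hochberg adjustment over 16197 genes, called under 0.05. Intervals and SEs come from this fit. CPM is relative to the library, so a change in total RNA would not be seen. The 24159424 to 43792811 counts a library limit precision for the low members: SLC25A21, SLC25A26 and SLC25A32 had 178, 295 and 343 counts over the 12 libraries.

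Counts are uncertain for members with 20% or more of exon bases inside another gene, or of 31-base stretches that recur in other transcripts, namely SLC25A5, SLC25A10, SLC25A21, SLC25A32, SLC25A33, SLC25A35, SLC25A51 and SLC25A52. By exon overlap the same holds for MPC2 (22.5%) and VIM (24.4%) among the other genes named. The values of 1 tested member are not reported here, though it stays in the counts. Members and lists were chosen with earlier results of these data known. The rule for names took the 3 targets, the di- and tricarboxylate, iron and glutathione carriers, and the called members among the 8 largest changes per knockdown. Whether replicate numbers pair the samples was not settled. Of 18 same-number pairs 0 correlated above 0.1 in their deviations from the group means (-0.04 to 0.09), nor did pairs with different numbers. For 6 of 12 libraries the most correlated library of another group carried the same number. On counts simulated for siSLC25A1 against siControl, 74.7% of 95 genes changed by 1 on the log2 scale, 70% of 100 changed by 0.5 and 11 of 15649 unchanged genes were called. Far fewer genes were changed there than the 19.6% called in the data, so these rates do not carry over. Alternatives were size factors by median of ratios, library totals, filters, DESeq2 1.42.0, a replicate block, the fit without the robust option or with 2 groups, a fold threshold and leaving out each library.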

Additional observations from a re-analysis of the deposited data

How the results depend on the processing

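Counts of called carriers against siControl were 7 for siSLC25A1, 15 for siACLY and 19 for siACO1. With a required absolute log2 fold change of 0.5 they were 2, 2 and 3. Between knockdowns they were 2 for siSLC25A1 minus siACLY, 5 for siSLC25A1 minus siACO1 and 5 for siACLY minus siACO1. Fewer calls follow by construction, since most changes are smaller, and the share of all genes at that threshold was not computed. Leaving out each library in turn gave 6 to 10, 9 to 17 and 15 to 20 against siControl, and 11 to 14, 17 to 22 and 18 to 21 between knockdowns in the same order. The share of all genes called moved too, from 13.9% to 24.9%, 30.1% to 40.6% and 30.7% to 37.3% against siControl. Between knockdowns it ran from 28.1% to 38.1%, 36.4% to 40.8% and 36.3% to 41.5%. The lowest siACLY count, 9, came without siControl replicate 2, and the cause was not tested. DESeq2 called 7, 12 and 18 against siControl, beside 23%, 33.8% and 31.9% of all genes. Library totals gave 7, 13 and 18, beside 19.5%, 36.3% and 37.2%. The fit with a replicate block called 7, 15 and 19 against siControl, the same numbers as without it. Over the alternatives run, no direction was reversed among called genes. Depth limits members with few counts, such as SLC25A21, whose interval in siSLC25A1 reached from -0.98 to 0.97.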
